A study of Mus musculus with 15 samples.

Results

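The mitochondrial respiratory chain genes were followed in sorted cells of the mouse fetal liver. Members were chosen by gene symbol alone: every measured gene whose symbol begins with Nduf, with Sdh followed by a to d, with Uqcr, with Cox4 to Cox8 or with Atp5. This gave 93 of the 19938 genes that had a probe set with a single symbol. Grouped by symbol, they comprise 36 complex I subunits and 7 complex I assembly factors, 4 complex II subunits and 4 complex II assembly factors, 8 complex III subunits, 17 complex IV subunits and 17 complex V subunits.

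The study asked what loss of the transcription factor KLF3 does in red cell development. Cells came from FVB/NJ embryos at E14.5 (mid-gestation) and were separated magnetically on TER119, a surface antigen of maturing red cell precursors. Total RNA was read on 15 MoGene 1.0 ST arrays (Affymetrix), whose probes are spread over the whole transcript. TER119+ cells (positive selection) gave 3 Klf3 KO and 4 WT arrays, and TER119- cells (depletion) gave 4 Klf3 KO and 4 WT arrays. The TER119 selection takes up later red cell precursors, and the depleted fraction keeps earlier precursors and other blood cells. The labels do not describe the KO allele, and they do not say that replicates were separate embryos, so p-values speak only to the spread among these samples, part of which may be technical. No batch is named in them, and a batch effect that ran with the sorted fraction and the fraction itself cannot be told apart.

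The respiratory chain passes electrons through complexes I to IV in the inner mitochondrial membrane and pumps protons, and complex V (ATP synthase) uses the proton gradient to make ATP. Most subunits are encoded in the nucleus, a few in mitochondrial DNA, and assembly factors help to build the complexes without staying in them. Red cell precursors need mitochondria for haem synthesis, and they clear all of their mitochondria at the end of maturation.

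Klf3, the targeted gene, was measured first. In TER119+ cells its log2 expression was 10.55, 10.34 and 10.52 on the KO arrays, against 10.37, 9.94, 10.50 and 10.08 on the WT arrays. In TER119- cells it was 8.02, 8.49, 8.74 and 8.09 on the KO arrays, against 8.80, 8.22, 8.55 and 7.94 on the WT arrays. The genotypes overlapped in both populations, and where the probes lie relative to the deleted part is not given in the sources used here, so these values neither bear out nor go against the labels. The genotypes are therefore called KO-labelled and WT below. Of 19 measured erythroid markers, 17 were higher in WT TER119+ than in WT TER119- cells. The TER119+ fraction did not carry red cell markers alone. The mean of the erythroid markers lay between 10.92 and 10.99 on the KO-labelled and between 10.76 and 11.02 on the WT TER119+ arrays. The mean of the hepatocyte markers lay between 10.77 and 11.16 on the KO-labelled and between 10.61 and 11.24 on the WT TER119+ arrays. On the TER119- arrays the hepatocyte mean was 5.60 to 6.95 (KO-labelled) and 5.76 to 7.85 (WT). Different probe sets cannot be ranked as amounts of RNA, so the erythroid and hepatocyte means are not compared with each other. In WT cells, 19 of the 20 hepatocyte markers, 10 of 11 macrophage markers and 10 of 12 endothelial and stromal markers were higher in TER119+ cells, and 9 of 10 progenitor markers and 11 of 11 neutrophil markers were lower. The part of these other cells in the results on the respiratory chain was not tested. WT TER119- replicates 2 and 4 and KO-labelled TER119- replicate 4 stand apart from the other TER119- arrays on their first principal component. Without these 3 arrays, 74 members were called between the populations in KO-labelled cells and 66 in WT cells, and 0 between the genotypes.

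The first comparison set TER119+ against TER119- cells and asked how the respiratory chain differs between the sorted fractions. Most members were lower in the TER119+ cells, but a sizeable minority was higher, and the direction differed between subunits of a single complex. Assembly factors of complexes I and II were the groups with the largest downward shift, while Uqcrc1, Ndufa6 and Ndufs7 were among the members that were higher. A member is called changed where limma's adjusted p was under 0.05. In KO-labelled cells 20 of 93 members rose, where 22.6% of all genes rose, and 53 fell, where 26.5% of all genes fell. In WT cells 20 rose against 23.5% of all genes, 49 fell against 29.1%, and the other 24 did not pass. The share of members that rose was thus close to the background in both genotypes, and the share that fell was above it. The median log2 difference of the members was -0.50 in KO-labelled and -0.35 in WT cells, while that of all genes was -0.06 in KO-labelled and -0.09 in WT cells. The median array level over all genes was itself higher in TER119+ cells, by 0.10 in KO-labelled and 0.05 in WT cells, and relative to it the members' medians were -0.60 in KO-labelled and -0.40 in WT cells. In these bulk samples, fewer cells of a type and less RNA per cell cannot be told apart.

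**Figure D1:**
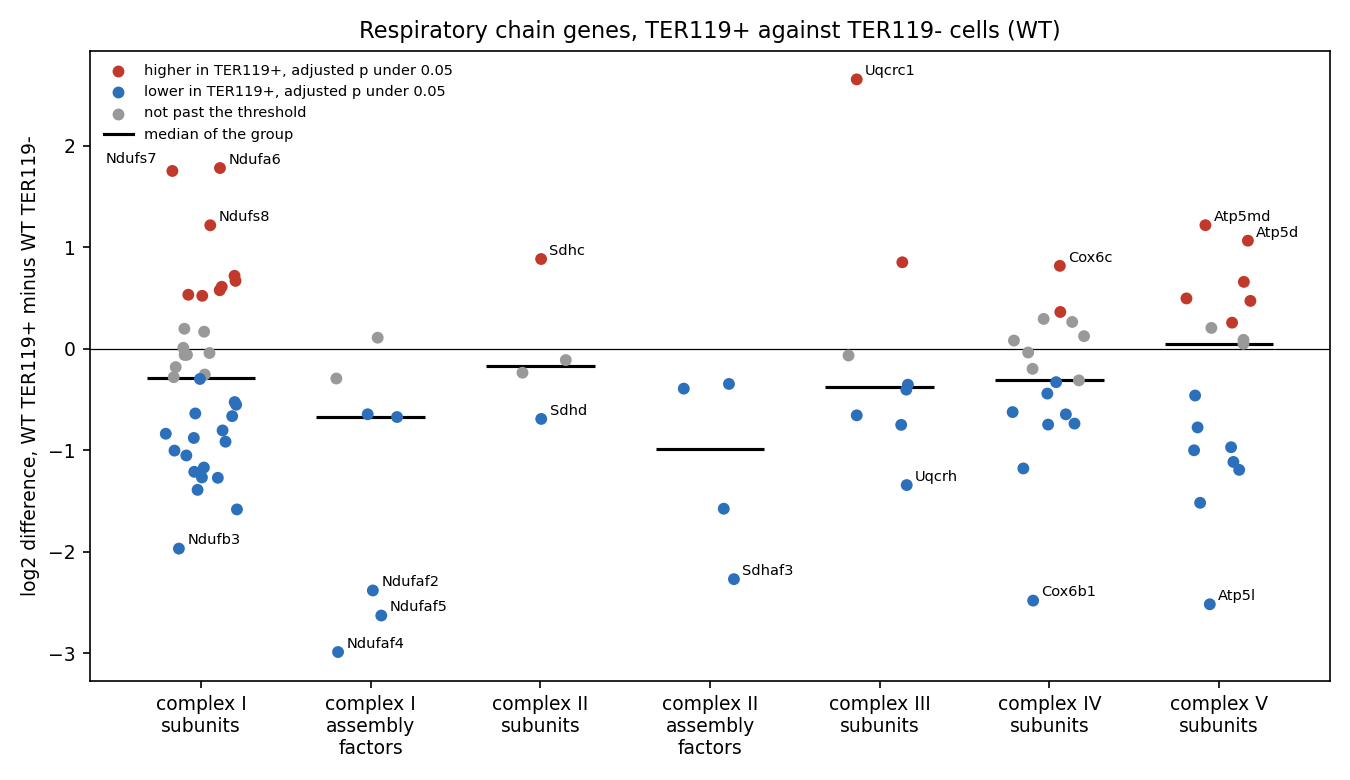
Log2 difference between WT TER119+ and WT TER119- cells (y axis) for the 93 members, grouped by role (x axis); each point is a gene, coloured by whether it passed the test, and black bars are group medians. All 4 complex II assembly factors lie below 0, and every other group holds members on both sides.

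Assembly factors of complex I insert cofactors or stabilise intermediates, and they include Ndufaf4, the member with the largest fall. Of 7 measured, 5 fell and 0 rose in WT cells. Ndufaf4 was 6.98, 6.92 and 7.37 on the KO-labelled TER119+ arrays, against 9.86, 10.04, 10.22 and 10.49 on the KO-labelled TER119- arrays. It was 7.19, 6.80, 7.16 and 7.20 on the WT TER119+ arrays, against 9.99, 10.24, 9.87 and 10.21 on the WT TER119- arrays. The populations were far apart in either genotype, with differences of -3.06 (SE 0.16) in KO-labelled and -2.99 (SE 0.15, adjusted p = 4.85e-11) in WT cells. Ndufaf5, an enzyme that modifies the subunit NDUFS7, differed by -2.63 (SE 0.12) in WT cells, and Ndufaf2, which binds a late assembly intermediate, by -2.38 (SE 0.14). Ndufaf5 was dim in WT TER119+ cells (mean 4.95), below the median gene of each of those arrays. Ndufaf3 and Ndufaf6 also fell, with differences of -0.65 and -0.67. Ndufaf7 was at 0.11 and did not pass.

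The assembly factors of complex II behaved alike in direction: 4 of 4 fell in KO-labelled and 4 of 4 in WT cells. Sdhaf3, which acts in maturation of the iron-sulfur subunit SDHB, had 5.66, 5.67, 5.11 and 5.42 on the WT TER119+ arrays, against 7.35, 7.74, 7.46 and 8.39 on the WT TER119- arrays. Its difference was -2.27 (SE 0.21, adjusted p = 8.5e-08). Sdhaf4, which helps the flavoprotein SDHA into the complex, differed by -1.58 (SE 0.13), but its other probe set gave -0.38. Sdhaf4 was dim in WT TER119+ cells (mean 4.86), below the median gene of each of those arrays. Sdhaf1 and Sdhaf2 fell as well (-0.35 and -0.39), though the WT call of Sdhaf1 was lost on leaving out WT TER119+ replicate 1 or 3 or WT TER119- replicate 1 or 3.

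The 4 subunits of complex II itself, which also serves as succinate dehydrogenase of the citric acid cycle, did not move together. Sdhc, a membrane anchor, rose: it was 10.14, 10.46, 10.16 and 10.29 on the WT TER119+ arrays, against 9.46, 9.28, 9.42 and 9.37 on the WT TER119- arrays, a difference of 0.88 (SE 0.09, adjusted p = 5.88e-07). Sdhd, the other anchor, fell by 0.69 (SE 0.13, adjusted p = 0.000303). Every WT TER119+ value of Sdhc lay above every WT TER119- value, and for Sdhd the order was the reverse. The catalytic subunits Sdha and Sdhb were at -0.24 and -0.11 in WT cells and did not pass. Sdha reached 10.67 and 10.72 on WT TER119- replicates 1 and 3 and was lower on replicates 2 and 4, the WT arrays that stand apart. Without the 3 TER119- arrays that stand apart, Sdha differed by -0.31 in KO-labelled and -0.59 in WT cells and passed in both.

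Of the 36 complex I subunits, 9 rose and 18 fell in WT cells. Ndufa6, an accessory subunit of the LYR family, was 7.75, 7.80 and 7.75 on the KO-labelled TER119+ arrays, against 6.35, 5.96, 5.99 and 6.10 on the KO-labelled TER119- arrays. On the WT arrays it was 7.66, 7.81, 7.71 and 7.81 in TER119+ cells, against values between 5.86 and 6.07 on the 4 TER119- arrays. The difference was 1.67 (SE 0.10) in KO-labelled and 1.78 (SE 0.09, adjusted p = 1.2e-10) in WT cells. Ndufs7 and Ndufs8, which carry iron-sulfur clusters near the ubiquinone site, were higher by 1.75 (SE 0.12) and 1.22 (SE 0.15) in WT cells. On single arrays Ndufs7 was 9.76, 9.73, 9.58 and 9.63 in WT TER119+ cells, against 7.80, 7.70, 7.93 and 8.27 in WT TER119- cells. Ndufa12 rose by 0.72, Ndufc1 by 0.67 (2.07 with another probe set), Ndufb6 by 0.58, Ndufa8 by 0.53 and Ndufs6 by 0.52.

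The catalytic core of complex I is the set of subunits shared with bacteria. Grouped after their values were seen, 3 of the 6 measured nuclear core subunits rose and 0 fell in WT cells, while 6 of the 30 accessory subunits rose and 18 fell. The accessory group goes by gene symbol and so includes Ndufa4, which fell, and its paralog Ndufa4l2. The core members that rose were Ndufs7, Ndufs8 and Ndufv1, the flavin subunit that takes electrons from NADH. The call of Ndufv1 is weak: it was 9.47, 9.56, 9.15 and 9.44 on the WT TER119+ arrays, against 9.17, 8.37, 9.38 and 8.27 on the WT TER119- arrays, so the groups overlapped. Its difference was 0.56 (SE 0.24, adjusted p = 0.0666) in KO-labelled cells and 0.61 (SE 0.22, adjusted p = 0.0309) in WT cells. Without the 3 TER119- arrays that stand apart, the WT difference was 0.13 and did not pass. Ndufs1, the largest core subunit, was at 0.17, Ndufs3 at 0.20 and Ndufv2 at -0.04, and none of these passed.

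Among the accessory subunits that fell, Ndufb3 was 6.99, 6.78, 6.94 and 6.48 on the WT TER119+ arrays, against 8.67, 8.87, 8.85 and 8.67 on the WT TER119- arrays. Its difference was -1.97 (SE 0.11, adjusted p = 3.76e-10). Ndufb9 differed by -1.58 (SE 0.10) and Ndufb10 by -1.39 (SE 0.12); all of these belong to the membrane arm. Ndufa4, which is now counted as a subunit of complex IV although its name places it in complex I, fell by 1.21 (SE 0.12). Its paralog Ndufa4l2 was at -0.25 (adjusted p = 0.08).

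In complex III, which passes electrons from ubiquinol to cytochrome c, 2 of 8 members rose and 5 fell in WT cells. The members that rose were Uqcrc1, a core subunit on the matrix side, and Uqcrb, which was at -0.26 and did not pass with the probe set of its own chromosome. On the KO-labelled arrays Uqcrc1 was 10.48, 10.49 and 10.51 in TER119+ cells, against 8.01, 8.07, 8.10 and 7.66 in TER119- cells. On the WT arrays it was 10.49, 10.40, 10.28 and 10.33 in TER119+ cells, against 7.66, 7.36, 8.20 and 7.68 in TER119- cells. All TER119+ values of Uqcrc1 were above all TER119- values, with a difference of 2.53 (SE 0.16) in KO-labelled and 2.65 (SE 0.14, adjusted p = 1.65e-10) in WT cells. The partner core subunit Uqcrc2 was at -0.07 and did not pass. The hinge protein gene Uqcrh fell by 1.34 (SE 0.11), and Uqcrfs1, the Rieske iron-sulfur protein, fell by 0.40 (SE 0.12, adjusted p = 0.012).

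In complex IV (cytochrome c oxidase), 2 of 17 members rose and 8 fell. Cox6b1, a subunit on the intermembrane side, was 9.20, 9.16 and 9.45 on the KO-labelled TER119+ arrays, against 11.71, 11.61, 11.56 and 11.86 on the KO-labelled TER119- arrays. On the WT arrays it was 9.31, 9.19, 9.19 and 9.11 in TER119+ cells, against 11.45, 11.75, 11.60 and 11.92 in TER119- cells. The populations did not overlap, with differences of -2.42 (SE 0.12) in KO-labelled and -2.48 (SE 0.11, adjusted p = 1.65e-11) in WT cells. Cox6c and Cox5b rose by 0.82 (SE 0.12) and 0.36. Cox4i1 and Cox5a, early-assembling subunits that bind the core, fell, with differences of -0.44 (SE 0.09) and -0.62 (SE 0.14).

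Several complex IV subunits have tissue isoforms, and their values are given side by side, with no test between isoforms. Cox6b1 fell in both genotypes, while Cox6b2, known from testis, fell by 0.53 in KO-labelled cells (adjusted p = 0.0111) and was at -0.04 in WT cells. Cox7a2l, which joins supercomplexes, fell by 1.18 (SE 0.11), while Cox7a2 was at 0.12 and the muscle isoform Cox7a1 at 0.26, and neither passed in WT cells. Cox6a1 and its muscle isoform Cox6a2 both fell (-0.65 and -0.74). Cox6a2 was dim in WT TER119+ cells (5.03 to 5.30), below the median gene of each of those arrays. Cox8a, the ubiquitous form, was at 0.29 and did not pass, and Cox8b fell by 0.33 (adjusted p = 0.0212). The hypoxia-related isoform Cox4i2 (-0.20) and the testis isoform Cox8c (0.08) did not pass. The means over all arrays of Cox8b, Ndufa4l2 and Cox8c were 4.31, 4.43 and 4.98, the bottom of the members' range, below the median gene of every array; RMA compresses differences between such dim signals. Cox7b, Atp5c1 and Atp5b stood at 12.09, 12.02 and 11.85, and different probe sets cannot be ranked as amounts of RNA.

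**Figure D2:**
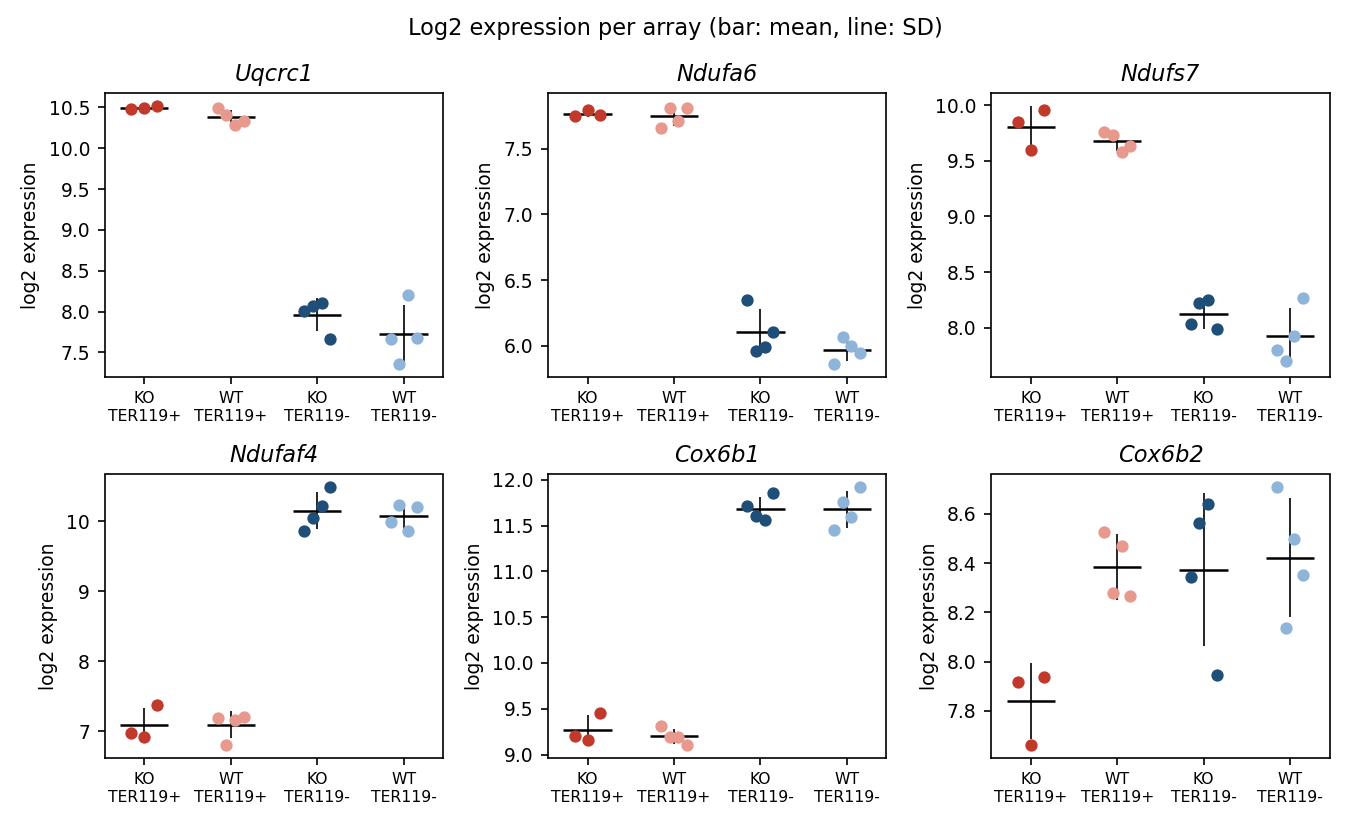
Log2 expression (y axes, each with its own range) of 6 members on each array, by genotype and population (x axis); points are arrays, bars are means and vertical lines SDs. Uqcrc1, Ndufa6 and Ndufs7 are higher and Ndufaf4 and Cox6b1 lower in TER119+ cells of both genotypes, and Cox6b2 is lower on the 3 KO-labelled TER119+ arrays (7.66 to 7.94) than on the 4 WT TER119+ arrays (8.27 to 8.53).

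In complex V, 6 of 17 members rose and 8 fell, and the parts of the enzyme differed. The c ring, the rotor through which protons pass, is built from a protein encoded by 3 genes, and 3 of 3 fell, with differences of -1.52 (SE 0.16) for Atp5g1, -1.19 (SE 0.10) for Atp5g2 and -0.77 (SE 0.12) for Atp5g3. A second probe set of Atp5g1 gave -0.74. The other probe sets of Atp5g2 gave -2.40 and, for the one of its own chromosome, -0.96. In the F1 head, which makes ATP, 3 of 5 members rose and 1 fell; both groupings were made after the values were seen. Atp5d, the delta subunit, was 10.51, 10.33, 10.30 and 10.24 on the WT TER119+ arrays, against 9.43, 9.05, 9.53 and 9.10 on the WT TER119- arrays, a difference of 1.06 (SE 0.12, adjusted p = 1.54e-06). Atp5b, the catalytic beta subunit, rose by 0.47 (SE 0.10) and Atp5a1, the alpha subunit, by 0.26 (SE 0.10, adjusted p = 0.0421). The WT call of Atp5a1 was lost with array medians subtracted, array weights, quantile normalization or only the groups of the contrast, without the 3 TER119- arrays that stand apart (0.15), and on leaving out WT TER119+ replicate 1, 2 or 4 or WT TER119- replicate 2 or 4. Atp5e, the epsilon subunit, fell by 0.97, and Atp5c1, the gamma subunit, was at 0.09 and did not pass. Of the membrane part, Atp5l (subunit g) was 10.14, 9.99, 10.10 and 10.01 on the WT TER119+ arrays, against 12.54, 12.61, 12.58 and 12.57 on the WT TER119- arrays, a difference of -2.52 (SE 0.11, adjusted p = 7.88e-12). Atp5md rose by 1.22 (SE 0.19), Atp5h by 0.66 (SE 0.12) and Atp5j by 0.50 (SE 0.08).

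The promoters of 4 members with large population differences are shown because these genes moved far in opposite directions: Uqcrc1 and Ndufa6 were higher and Ndufaf4 and Cox6b1 lower in TER119+ cells. Each is the coding strand from 250 bases before to 50 bases after the RefSeq start on GRCm38.p6, with motif matches in capitals. They lie at chr9:108936398-108936697 (Uqcrc1, plus strand), chr15:82354242-82354541 (Ndufa6, minus strand), chr4:24897833-24898132 (Ndufaf4, plus strand) and chr7:30626065-30626364 (Cox6b1, minus strand).
Uqcrc1: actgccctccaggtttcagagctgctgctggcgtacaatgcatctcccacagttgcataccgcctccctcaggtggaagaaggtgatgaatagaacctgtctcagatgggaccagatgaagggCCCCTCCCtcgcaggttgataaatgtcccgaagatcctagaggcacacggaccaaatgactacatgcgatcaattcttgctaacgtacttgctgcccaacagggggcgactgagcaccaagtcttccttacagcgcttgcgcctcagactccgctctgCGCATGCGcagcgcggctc
Ndufa6: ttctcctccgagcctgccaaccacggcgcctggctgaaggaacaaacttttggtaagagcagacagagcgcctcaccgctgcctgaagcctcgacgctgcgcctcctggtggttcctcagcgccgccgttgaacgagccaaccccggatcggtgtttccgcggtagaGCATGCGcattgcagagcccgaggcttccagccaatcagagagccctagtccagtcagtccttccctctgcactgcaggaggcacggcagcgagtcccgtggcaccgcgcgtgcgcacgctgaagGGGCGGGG
Ndufaf4: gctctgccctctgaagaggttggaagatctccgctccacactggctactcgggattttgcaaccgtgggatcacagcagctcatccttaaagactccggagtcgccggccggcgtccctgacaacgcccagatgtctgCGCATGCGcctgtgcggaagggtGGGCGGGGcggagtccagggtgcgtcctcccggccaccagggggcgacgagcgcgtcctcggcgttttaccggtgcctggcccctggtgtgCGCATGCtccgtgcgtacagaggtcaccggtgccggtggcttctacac
Cox6b1: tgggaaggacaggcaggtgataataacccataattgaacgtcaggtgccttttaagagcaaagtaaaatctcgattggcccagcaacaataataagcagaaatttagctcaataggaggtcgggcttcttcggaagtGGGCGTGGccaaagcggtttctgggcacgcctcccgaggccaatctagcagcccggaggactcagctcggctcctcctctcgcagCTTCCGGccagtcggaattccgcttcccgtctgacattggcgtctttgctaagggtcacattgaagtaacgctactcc
The capitals mark 4 motifs, searched on both strands: GCATGCG, the core bound by nuclear respiratory factor 1, an activator of respiratory chain genes; CCGGAAG, the ETS core bound by GABP; AAGATGG, a YY1 core; and CCNCNCCC, the CACCC type of box that KLF proteins bind. The first of these nearly reads the same on both strands, so that a run can hold 2 overlapping matches. Of the 93 members, 77 had a promoter in the RefSeq table. The nuclear respiratory factor 1 core was in 16.9% of these, against 4.01% of all 27025 genes of that table, measured here or not. On the same terms the ETS core was in 27.3% against 9.93%. The YY1 core was in 13.0% against 7.28% and the KLF box in 58.4% against 51.9%. Among the members with a promoter, the KLF box was in 12 of 16 that rose and 21 of 42 that fell in WT cells, and the nuclear respiratory factor 1 core in 4 of 16 and 8 of 42. Among those not called in WT cells, the KLF box was in 12 of 19 and the nuclear respiratory factor 1 core in 1 of 19. A match describes letters in the window and is not a bound site.

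The population differences were set side by side in the genotypes, which share no arrays in this comparison. Of the members that rose, 19 were called in both, which is 95.0% of the 20 in KO-labelled and of the 20 in WT cells. Of those that fell, 49 were called in both, 92.5% of the 53 in KO-labelled and all of the 49 in WT cells. Over the 93 members the differences in KO-labelled and WT cells correlated at r = 0.989, and 85 had the same sign. That is a description across genes measured on the same array type. Shared calls, correlation and signs were not worked out over all genes, so this agreement is not shown to be particular to the members. Ndufaf1, Cox4i2, Cox7a1, Ndufs4 and Cox6b2 were called in KO-labelled cells alone, and Ndufv1 in WT cells alone. For none of these did the difference between genotypes pass its own test, which is given with the KO comparison.

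**Figure D3:**
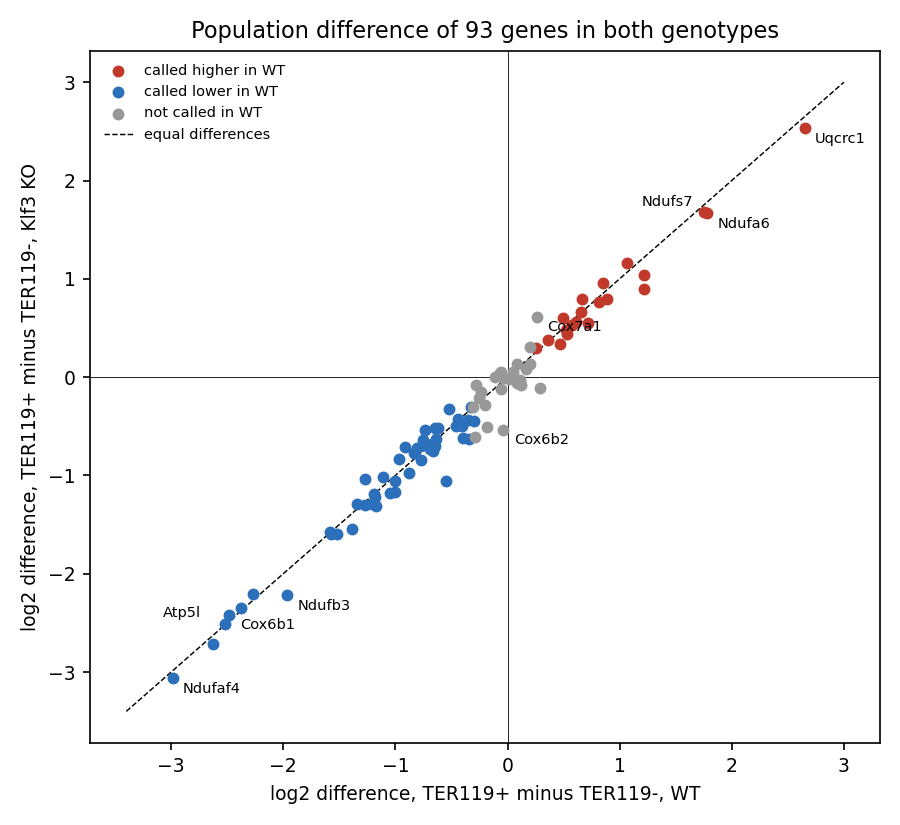
Log2 difference of TER119+ minus TER119- cells in KO-labelled (y axis) against WT cells (x axis) for the 93 members; points are genes coloured by their call in WT cells, and the dashed line marks equal differences. The points follow the line (r = 0.989), and Cox6b2 and Cox7a1 lie off it, at -0.53 and 0.62 in KO-labelled against -0.04 and 0.26 in WT cells. Cox7a1 is dim (mean over all arrays 5.21).

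Respiratory chain genes have many processed pseudogenes, and array probe sets assigned to a gene can lie elsewhere in the genome. Of the members, 18 had more than 1 probe set. Array identifiers run along the chromosomes, and for 96.8% of all probe sets with a single symbol the neighbouring identifiers belonged to genes of the same chromosome. For 11 members the probe set with the highest mean lay in the run of another chromosome. Uqcrb, a complex III subunit, depends on this choice: its brightest probe set was higher in TER119+ cells, by 0.85 in WT (adjusted p = 1.19e-05), and the probe set in its own chromosome's run was at -0.26 (adjusted p = 0.0847). Atp5pb, a stator subunit of complex V, was at 0.20 with the brightest probe set and fell by 0.46 with its own run's. The other called members kept their direction: with the own run's probe set, Atp5l differed by -3.32, Cox7b by -1.64, Cox7a2l by -0.51 and Ndufa11 by -0.50. With own-run probe sets, 19 members rose and 50 fell in WT cells. A further 6 probe sets carried several symbols (Cox7c, Ndufb4 or Ndufs5 with a copy) and were not counted as members; in WT cells their differences were between -1.82 and -1.27.

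**Figure D4:**
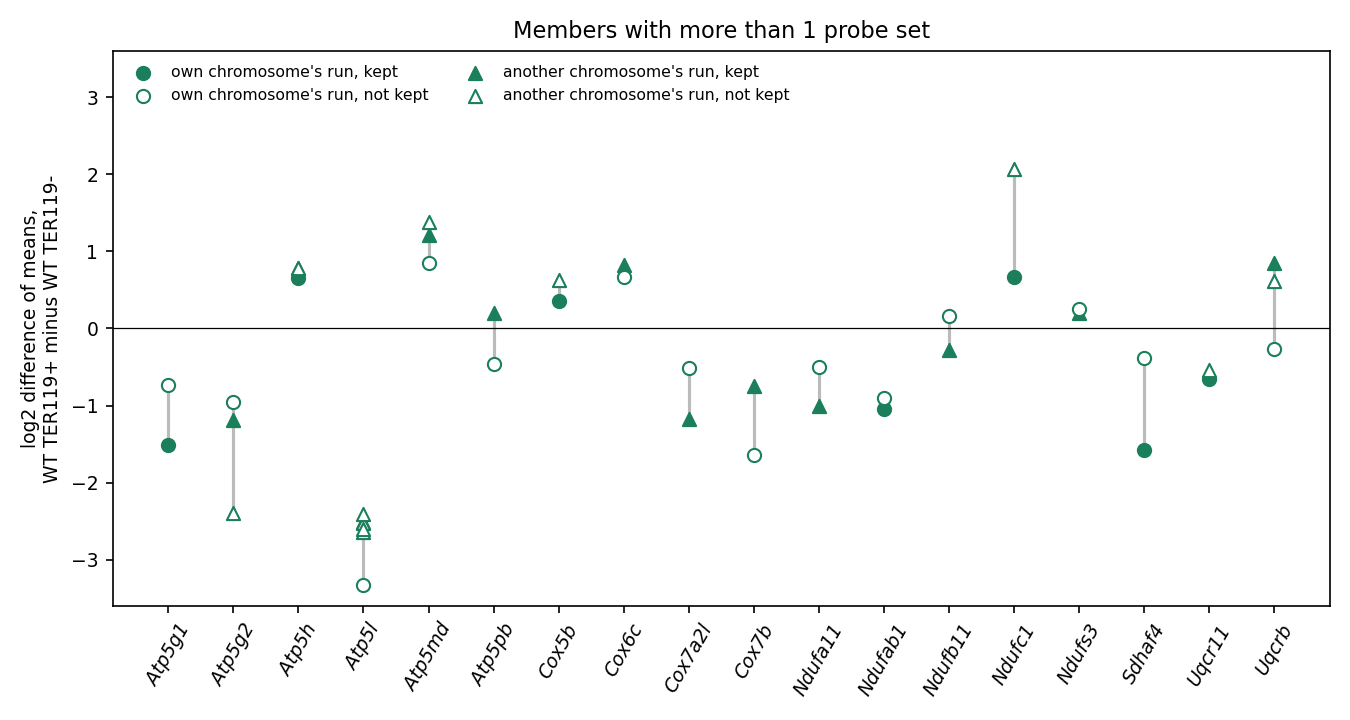
Log2 difference of means, WT TER119+ minus WT TER119- (y axis), for each probe set of the 18 members with more than 1 (x axis); circles lie in the identifier run of the gene's own chromosome, triangles in that of another, and filled symbols are the probe sets kept. The probe sets of Uqcrb, Atp5pb and Ndufb11 lie on both sides of 0, and those of the other 15 on one side.

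Genes that work with the chain also went both ways in WT cells, where 23.5% of all genes rose and 29.1% fell. No list was tested against these shares. Of 34 other assembly factors, 5 rose and 16 fell in WT cells; Uqcc2, a complex III factor, fell by 2.42 (SE 0.24), and Tmem126b, a complex I factor, fell by 1.73 (SE 0.13). Of 8 other structural and carrier genes, 1 rose and 2 fell: Cyc1, the cytochrome c1 of complex III, was higher by 0.92 (SE 0.14), while Cycs, cytochrome c, fell by 1.11 (SE 0.09) and Cox20, a complex IV factor, fell by 2.01 (SE 0.16). The inhibitor of complex V, Atpif1, rose by 0.44 (SE 0.15, adjusted p = 0.0253) in KO-labelled cells and was at 0.12 in WT cells. The mitochondrially encoded subunits listed as COX2 and ND3, the 2 of 13 that could be measured, were higher by 0.49 (SE 0.11) and 0.39 (SE 0.10) in WT cells. Of 17 citric acid cycle genes 4 rose and 6 fell, and of 11 ubiquinone synthesis genes 3 rose and 5 fell. Of 16 biogenesis regulators 6 rose and 5 fell. Nrf1 (nuclear respiratory factor 1) and the coactivator gene Ppargc1a rose by 1.17 (SE 0.13) and 1.18 (SE 0.15), while Ssbp1, a mitochondrial DNA binding protein, fell by 2.33 (SE 0.08). Pcx, pyruvate carboxylase, which hepatocytes express strongly, rose by 4.58 (SE 0.10). The hepatocyte markers rose with a median of 4.30, and the part of hepatocytes in the rise of Pcx was not tested.

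The second comparison set KO-labelled against WT cells and asked whether loss of KLF3 changes the respiratory chain. No member passed the test in either population. The differences were small: the 93 members lay between -0.55 and 0.29 in TER119+ cells and between -0.27 and 0.49 in TER119- cells. In TER119+ cells limma called 0 of 93 members, against 1.02% of all genes, and 5 members (5.38%) had an unadjusted p under 0.05, against 5.33% of all genes. In TER119- cells it called 0 of 93, against 0.0853% of all genes, and 6 (6.45%) had an unadjusted p under 0.05, against 7.56%. The median SE of a member's difference was 0.13 in TER119+ and 0.12 in TER119- cells, so shifts of that size could not be told from the spread between arrays. Larger shifts could be missed as well: the extremes of -0.55 in TER119+ and 0.49 in TER119- cells did not pass.

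More members lay above than below 0. In each population 68 of 93 were higher in KO-labelled cells, against 47.0% of all genes in TER119+ and 46.2% in TER119- cells. The median difference was 0.04 in TER119+ cells (all genes -0.01) and 0.08 in TER119- cells (all genes -0.02), and 53 members were above 0 in both. The lean moved with the scaling: down with quantile normalization in both populations, and up with array medians subtracted in TER119- cells only. After quantile normalization 51 members were above 0 in TER119+ and 45 in TER119- cells, with medians of 0.01 and -0.004. With array medians subtracted, 68 were above 0 in TER119+ cells and 79 in TER119- cells, with medians of 0.04 and 0.13. Leaving out KO-labelled TER119- replicate 1 or WT TER119- replicate 1 lowered the TER119- median to 0.05, with 56 members above 0 each time. In TER119+ cells the KO-labelled and WT arrays did not overlap for 6 members that were higher, where 5.29% of all genes did so, and for 4 that were lower, where 4.81% did. In TER119- cells they did not overlap for 4 higher members, where 1.22% of all genes did so, and for 0 lower members, where 1.41% did. In TER119- cells 19 of 20 hepatocyte markers were lower on the KO-labelled arrays, with a median of -0.78, as were 11 of 11 neutrophil markers (median -0.27) and 11 of 12 endothelial and stromal markers (median -0.19), while 16 of 19 erythroid markers were higher (median 0.16). In TER119+ cells 17 of 20 hepatocyte markers (median 0.08) and 10 of 11 neutrophil markers (median 0.18) were higher on the KO-labelled arrays. None of these markers passed the test. Of 11 macrophage markers, 1 was called lower on the KO-labelled TER119+ arrays and 6 were above 0 (median 0.02). In TER119- cells 0 of the 11 were called and 4 were above 0 (median -0.15). Of 10 progenitor markers, 1 was above 0 in TER119+ cells (median -0.11) and 2 in TER119- cells (median -0.14), with 0 called. Y-linked genes were high on 1 of 4 KO-labelled and 4 of 4 WT TER119- arrays, and in TER119+ cells they were high on 1 of 3 KO-labelled and 2 of 4 WT arrays. With the hepatocyte level or sex in the fit, 0 members were called in either population. In TER119- cells the hepatocyte level in the fit gave a median of 0.13 with 75 members above 0 and 20 with an unadjusted p under 0.05, and sex in the fit gave 0.06, 58 and 3.

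**Figure D5:**
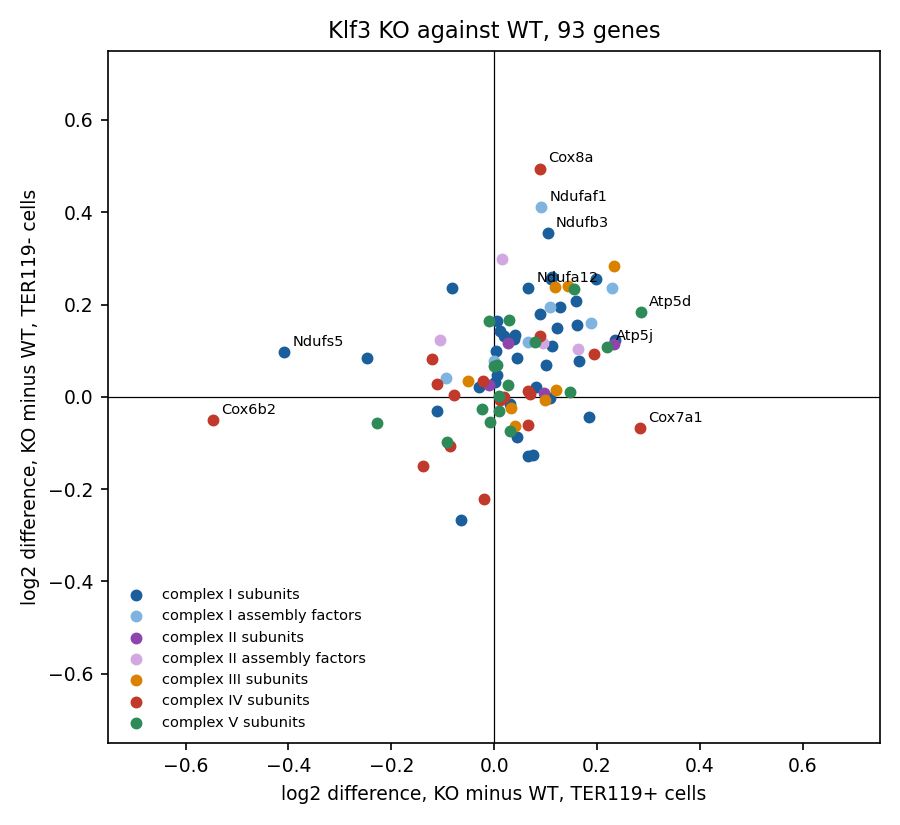
Log2 difference of KO-labelled minus WT cells in TER119- (y axis) against TER119+ cells (x axis) for the 93 members, coloured by role. All points lie within 0.55 of 0 on either axis, 53 are above 0 on both, and no member passed the test in either population.

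The members with the smallest p in TER119+ cells were Cox6b2, Atp5j and Ndufs5. Cox6b2, the testis isoform of the complex IV subunit 6b, was 7.92, 7.66 and 7.94 on the KO-labelled arrays, against 8.53, 8.28, 8.47 and 8.27 on the WT arrays. All 3 KO-labelled values were below all 4 WT values, and the difference was -0.55 (SE 0.16, adjusted p = 0.228). It passed the threshold when arrays were quantile normalized or weighted, or when the TER119- arrays were left out of the fit. In TER119- cells Cox6b2 was 8.34, 8.56, 8.64 and 7.95 on the KO-labelled arrays, against 8.71, 8.14, 8.50 and 8.35 on the WT arrays, and the groups overlapped (difference -0.05, SE 0.15). Atp5j, the coupling factor 6 of complex V, was 8.89, 8.69 and 8.71 on the KO-labelled TER119+ arrays, against 8.62, 8.60, 8.44 and 8.53 on the WT TER119+ arrays (0.22, SE 0.09, adjusted p = 0.683). Ndufs5 was 5.76, 6.09 and 6.08 on the KO-labelled TER119+ arrays, against 6.59, 6.40, 6.25 and 6.31 on the WT TER119+ arrays (-0.41, SE 0.17, adjusted p = 0.715). The Ndufs5 probe set shared with a pseudogene was at 0.14 in the same comparison.

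In TER119- cells the smallest p belonged to Ndufaf1, Ndufb3 and Cox8a. Ndufaf1, a complex I assembly factor, was 7.72, 7.99, 8.09 and 7.86 on the KO-labelled arrays, against 7.58, 7.68, 7.64 and 7.11 on the WT arrays, with no overlap (0.41, SE 0.13, adjusted p = 0.622). Ndufb3 was 9.26, 9.04, 8.96 and 9.21 on the KO-labelled arrays, against 8.67, 8.87, 8.85 and 8.67 on the WT arrays, again with no overlap (0.35, SE 0.11, adjusted p = 0.622). Cox8a was 9.01, 9.29, 9.24 and 9.16 on the KO-labelled arrays, against 8.22, 8.27, 9.14 and 9.08 on the WT arrays, which spanned the KO-labelled range in part (0.49, SE 0.18, adjusted p = 0.644). By role, all 7 complex I assembly factors were above 0 in TER119- cells, with differences of 0.04 to 0.41, and 5 of 7 were above 0 in TER119+ cells. The 12 core members (Ndufs1, Ndufv1, Sdha, Sdhb, Sdhc, Sdhd, Uqcrc1, Uqcrfs1, Cox4i1, Cox5a, Atp5a1 and Atp5b) were between -0.01 and 0.23 in TER119+ cells and between -0.03 and 0.24 in TER119- cells.

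The difference between the KO effects in the populations was tested directly. It was called for 0 of 93 members, against 0.436% of all genes, and 2 members (2.15%) had an unadjusted p under 0.05, against 4.27%. The smallest p values belonged to Cox6b2 (-0.50, SE 0.22), Ndufs5 (-0.50, SE 0.23) and Cox7a1 (0.35, SE 0.18), each with an adjusted p of 0.999. Cox7a1 was 5.48, 5.65 and 5.67 on the KO-labelled TER119+ arrays, against 5.23, 5.45, 5.37 and 5.21 on the WT TER119+ arrays, and the groups did not overlap. In TER119- cells it was 5.30, 4.70, 5.03 and 4.90 on the KO-labelled arrays, against 4.97, 4.99, 4.99 and 5.25 on the WT arrays, where they did. Cox7a1 is a dim member: its mean over all arrays was 5.21, below the median gene of every array.

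Of the listed pathway genes outside the symbol rule, 1 passed between the genotypes. Coq10b, a ubiquinone-binding protein whose yeast counterpart is needed for respiration, was 7.08, 7.55 and 7.46 on the KO-labelled TER119+ arrays, against 8.16, 8.04, 8.14 and 7.90 on the WT TER119+ arrays. All KO-labelled values were below all WT values, and the gene fell by 0.70 (SE 0.11, adjusted p = 0.00239). In TER119- cells it was at -0.10 (SE 0.10, adjusted p = 0.762), and the difference between these effects did not pass (-0.60, SE 0.15, adjusted p = 0.208). The other 87 measured pathway genes did not pass in either population.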

How the data were processed

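Log2 expression per probe set was deposited by the authors, who used RMA and Partek per the submitters' processing notes, which state no version. RMA subtracts background, gives the arrays a shared distribution and summarises probes. The table held 35399 probe sets between 2.91 and 14.26, of which 21789 had 1 symbol in the platform's annotation; each of the 19938 genes was represented by its brightest probe set on average. All 93 members matched the RefSeq gene table (GRCm38.p6) by Entrez identifier, and 0 symbols differed. The fit used limma 3.58.1 (R 4.3.3) over all arrays, with 1 coefficient for each of the 4 groups and no filter or covariate, and adjusted p-values are Benjamini-Hochberg over all genes, 2-sided, with a threshold of 0.05. Differences are on the log2 scale, and errors are SEs from the fit unless called SD. The number of arrays limits the precision.

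The members and lists were chosen with earlier results of these data known. Named members are the 12 with the largest difference called in each direction, or the 3 with the smallest p where none was called, a set of core members, isoform sets and the members with the highest and lowest means; others are named after their values were seen. Alternatives covered dim genes, probe set choice, scaling, normalization, variance model, array weights, arrays left out, replicate number, hepatocyte level and sex. The fit was tested on simulated data. Promoter sequences are RefSeq's.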

Additional observations from a re-analysis of the deposited data

Results flagged for a closer look

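In each group of 4 arrays, the 54 members named by rule and the members' median were checked for an outlying array. The gap of such an array to the nearest other array took up most of the group's range (Dixon's 95% critical value). Members named after their values were seen were not checked. Of 165 groups checked, 8 had such an array, and chance alone gives about 1 in 20. In KO-labelled TER119- cells, replicate 4 was low for Atp5a1 (11.07, others 11.41 to 11.47), Cox5a (8.88, others 9.24 to 9.25) and Ndufv1 (8.45, others 9.16 to 9.22); it is one of the arrays that stand apart. In WT TER119- cells, the outlying value was low for Atp5j (7.98, others 8.07 to 8.08) and Ndufs8 (7.04, others 7.48 to 7.55), and high for Cox7a1 (5.25, others 4.97 to 4.99) and Ndufb10 (7.97, others 7.79 to 7.82). In WT TER119+ cells it was low for Ndufaf4 (6.80, others 7.16 to 7.20). What sets these arrays apart was not tested.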

How the results depend on the processing

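The counts of members called between TER119+ and TER119- cells stayed within 1.5 times the reported 73 (KO-labelled) and 69 (WT) under every alternative run; leaving out 1 array at a time gave 68 to 73 and 64 to 71. For KO-labelled against WT cells, leaving out arrays gave 0 to 0 in TER119+ and in TER119- cells and for the difference between them. The count in TER119+ cells became 1 instead of 0 with quantile normalization, with array weights and with only the groups of the contrast in the fit, each time Cox6b2. With the replicate block the counts were 71 (KO-labelled) and 70 (WT) for the population, and 0 for the KO comparisons; same-numbered arrays' deviations correlated between -0.38 and 0.65, so the numbers were not taken to pair arrays. In an alternative chosen after seeing the data, the probe set in the gene's own chromosome run, Uqcrb reversed to -0.19 in KO-labelled and -0.26 in WT cells; the probe set is what this alternative changes. Calls near the threshold (Atp5a1, Ndufv1, Sdhaf1, Cox8b, Cox4i2, Atp5b in KO-labelled cells, among others) were lost in some alternatives. Without KO-labelled TER119+ replicate 2 the population calls of Cox5a and Cox6b2 in KO-labelled cells were lost (-0.43 and -0.45). Of the members, 88 had a mean above the median gene; the other 5 are dim, and the array cannot resolve small differences there.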
